A study of Mus musculus with 16 samples.

Results

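The p53 and Bcl2 family apoptosis genes described here are 10 listed genes, chosen by name: Trp53, Mdm2, Bcl2, Bcl2l1, Mcl1, Bax, Bak1, Bbc3, Pmaip1 and Bcl2l11. All 10 were found among the 24982 genes of the count table and in the TPM table, and the lowest count of any of them in any tumor was 123. Bulk RNA-seq was performed on 16 rhabdoid tumors, each from its own mouse, that arose in Smarcb1flox/flox;R26-CreERT2 mice after tamoxifen given during gestation. Cre is expressed from the ubiquitous Rosa26 locus and is activated by tamoxifen, so every group carries the Smarcb1 deletion and no wild-type tissue was analysed here. By labelled location there were 5 intra-CNS tumors, which the study places in its Shh class, 6 intracranial extra-CNS tumors and 5 extracranial tumors, both of which it places in its Myc class. The 5 intra-CNS tumors were all induced at embryonic day 6 and came from mice aged 30 to 180 days. Of the intracranial extra-CNS tumors, 1 was induced at day 6, 1 at day 7 and 4 at day 8, in mice aged 52 to 170 days. Of the extracranial tumors, 1 was induced at day 6 and 4 at day 8, in mice aged 80 to 210 days. Day of induction and location therefore largely coincide.

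The p53 protein, encoded by Trp53, is a transcription factor activated by DNA damage and oncogene stress, and Mdm2 is both its target and the ubiquitin ligase that degrades it. The Bcl2 family decides whether the outer mitochondrial membrane is permeabilised: Bcl2, Bcl2l1 (Bcl-xL) and Mcl1 hold the pore-forming effectors Bax and Bak1 in check, and the BH3-only proteins Bbc3 (Puma), Pmaip1 (Noxa) and Bcl2l11 (Bim) release them. Bax, Bbc3 and Pmaip1 are textbook p53 targets, and excess Myc activity is a known trigger of the same route.

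Total counts ranged from 17889968 to 110177889 per tumor. Smarcb1, the deleted gene, was measured at 2.07 to 38.3 CPM (counts scaled to the size of each library, after trimmed-mean normalisation), with its highest values in the intracranial extra-CNS tumor R26P115 (38.3 CPM) and the intra-CNS tumor 29048 (30.6 CPM). R26P115 stood apart from its group: Ttr, a choroid plexus gene, held 19.95% of its TPM, and Myc stood at 11.1 CPM against 96.8 to 245 CPM in the other 10 extra-CNS tumors and 7.26 to 21.8 CPM in the intra-CNS tumors. In 29048 the 6 oligodendrocyte markers summed to 6295 TPM, against 42.2 to 154 TPM in the other 15 tumors. Results are therefore also given without these tumors. The tumor of mouse 43990A is extracranial by its label and intracranial extra-CNS in the study's own sample list.

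Gene positions are those of GENCODE M21 on GRCm38, the assembly the authors aligned to. Trp53 (ENSMUSG00000059552.13) lies on chromosome 11 from 69580359 to 69591873 on the plus strand, and Mdm2 (ENSMUSG00000020184.15) on chromosome 10 from 117688875 to 117710758 on the minus strand. Of the 3 survival genes, Bcl2 (ENSMUSG00000057329.7) occupies 106538178 to 106714274 on the minus strand of chromosome 1, Bcl2l1 (ENSMUSG00000007659.18) 152780668 to 152831728 on the minus strand of chromosome 2, and Mcl1 (ENSMUSG00000038612.16) 95658788 to 95663176 on the plus strand of chromosome 3. The effectors are Bax (ENSMUSG00000003873.11), at 45461697 to 45466898 on the minus strand of chromosome 7, and Bak1 (ENSMUSG00000057789.14), at 27019810 to 27029009 on the minus strand of chromosome 17. Bbc3 (ENSMUSG00000002083.13) spans 16308393 to 16318205 on the plus strand of chromosome 7, and Bcl2l11 (ENSMUSG00000027381.16) 128126038 to 128162547 on the plus strand of chromosome 2. The values count reads over whole genes. Exons of Bak1 overlap those of Ggnbp1 on the opposite strand and exons of Bcl2 those of the antisense D630008O14Rik, and Bax shares exon bases with Gm45808 on the same strand. The strand setting of the authors' counting is not given in the sources used here, so reads of these partners cannot be told apart from reads of the members. No exon of Wrap53, the antisense neighbour of Trp53, overlapped an exon of Trp53, and Wrap53 itself stood at 10.8 to 26.8 CPM. Trp53 has a processed pseudogene, Trp53-ps, which was not analysed here.

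The start-site windows of the members were searched for the Myc E-box CACGTG and for the p53 response-element decamer, both of which read the same on either strand. The windows are RefSeq promoters of GRCm38.p6, from 250 bases before to 50 bases after a start site. For 9 members 14 windows were found, and 3 of the 14 held the E-box: the window of Trp53, that of Bax with 2 copies, and that of the most downstream of 3 start sites of Bbc3. The E-box was present in 7.15% of all 32851 windows of the same length. The decamer was found in the windows of Trp53, Mdm2 and Bax, and in 8.36% of all windows, while no window of a member held 2 decamers within 13 bases of each other, an arrangement present in 0.0731% of all windows. The 3 windows that held a decamer are shown 5′ to 3′ along the gene, because they include both p53 regulators and the effector with E-boxes. Capitals mark the E-box CACGTG and the decamer, which did not overlap. The Trp53 window is chr11:69580109-69580408 on the plus strand, with the decamer GGACTTGCCC starting 75 bases before the start site and the E-box 10 bases after it. The Mdm2 window is chr10:117710709-117711008 on the minus strand, with the decamer GAACTTGCCT starting 186 bases before the start site. The Bax window is chr7:45466849-45467148 on the minus strand, with the decamer AGGCAAGCTT starting 201 bases before the start site and the E-boxes starting 9 bases before and 35 bases after it.
Trp53: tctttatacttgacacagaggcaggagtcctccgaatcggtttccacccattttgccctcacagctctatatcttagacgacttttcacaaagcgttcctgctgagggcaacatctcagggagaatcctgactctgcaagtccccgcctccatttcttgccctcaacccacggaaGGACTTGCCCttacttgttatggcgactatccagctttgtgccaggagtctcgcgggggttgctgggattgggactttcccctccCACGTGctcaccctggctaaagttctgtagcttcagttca
Mdm2: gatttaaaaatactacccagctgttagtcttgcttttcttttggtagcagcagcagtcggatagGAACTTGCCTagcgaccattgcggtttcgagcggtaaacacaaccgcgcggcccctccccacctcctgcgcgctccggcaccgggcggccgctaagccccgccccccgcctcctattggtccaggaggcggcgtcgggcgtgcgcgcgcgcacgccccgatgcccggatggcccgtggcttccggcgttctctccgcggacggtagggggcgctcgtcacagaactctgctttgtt
Bax: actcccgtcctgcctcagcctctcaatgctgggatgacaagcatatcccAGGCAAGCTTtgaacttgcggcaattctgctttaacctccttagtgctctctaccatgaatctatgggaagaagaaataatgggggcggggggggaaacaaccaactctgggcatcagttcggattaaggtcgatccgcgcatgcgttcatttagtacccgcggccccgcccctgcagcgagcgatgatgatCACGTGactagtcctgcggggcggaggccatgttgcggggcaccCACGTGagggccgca
These matches describe letters in the windows and do not show binding.

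Of the 10 genes, 6 were lower in the intra-CNS tumors than in the 11 extra-CNS tumors: Mdm2, the survival genes Bcl2 and Mcl1, both effectors Bax and Bak1, and the BH3-only gene Bcl2l11. None of the 10 was called higher. The comparison asks how the 2 classes of tumor differ, with a gene called where the adjusted p of edgeR's quasi-likelihood test, adjusted by the Benjamini-Hochberg method over all 21854 genes tested, was under 0.05. These classes differ widely: 33.1% of all genes were called, 17.0% lower and 16.1% higher in intra-CNS tumors, and among the 16160 genes left by a filter on low counts 22.4% were called lower. Across the members the median log2 fold change was -1.19, beside -0.15 for all genes tested. With both 29048 and R26P115 left out, 6 members were again called lower, where 3708 of 21700 genes were. With the scheme of mouse names in the labels (numbered or R26P) as a covariate 6 members were lower too, where 3490 of 21854 genes were.

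**Figure D1:**
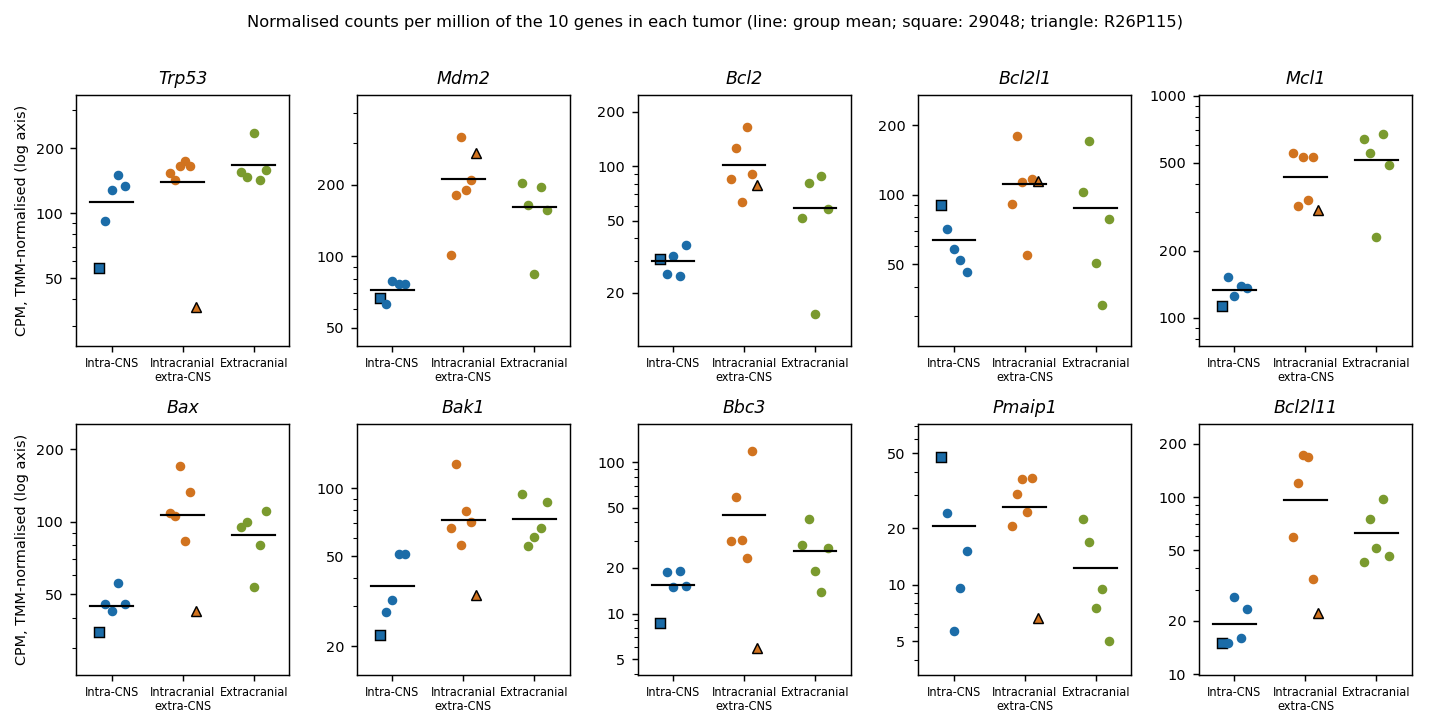
Normalised counts (CPM) of the 10 genes in each of 16 tumors, on log axes, by tumor group. Points are tumors, horizontal lines are group means, squares mark 29048 and triangles R26P115. Mdm2 and Mcl1 separate the 5 intra-CNS tumors from all 11 extra-CNS tumors, while Pmaip1 overlaps fully.

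Trp53 was not called between the classes. In the intra-CNS tumors it stood at 55.7 (29048), 92.2, 129, 134 and 151 CPM. In the intracranial extra-CNS tumors the lowest value was 36.7 CPM (R26P115), the median 159 CPM and the highest 175 CPM, and the extracranial tumors held 143, 147, 156, 158 and 235 CPM. The groups overlapped, with the lowest value of all in R26P115 and the highest in 43990A. The log2 fold change of intra-CNS over extra-CNS tumors was -0.44 (SE 0.30, 95% interval -1.08 to 0.20, edgeR adjusted p = 0.270). The call turned on R26P115: without it the log2 fold change was -0.55 (SE 0.20, edgeR adjusted p = 0.0425), and without both it and 29048 -0.37 (SE 0.16, edgeR adjusted p = 0.0845). On normalised counts Trp53 was also the one member whose direction differed between the name schemes. Its intra-CNS mean was lower by a log2 CPM difference of -0.89 among the numbered mice (3 against 8 tumors) and higher by 0.52 among the R26P mice (2 against 3, R26P115 included). The other 9 members kept their sign on that scale. On log2(TPM + 1) the difference turned for Trp53 (-0.38 among the numbered and 1.09 among the R26P mice), Bak1 (-0.89 and 0.35) and Bcl2l1 (0.26 and -0.48).

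Mdm2, the p53 antagonist, was lower in intra-CNS tumors. The intra-CNS tumors lay close together at 63.0, 66.5, 76.4, 76.6 and 78.8 CPM. The intracranial extra-CNS tumors reached from 101 CPM over a median of 199.7 CPM to 319 CPM, and the extracranial tumors held 84.0 (43990A), 156, 165, 196 and 204 CPM. No intra-CNS tumor reached the lowest extra-CNS tumor. Mdm2 was lower by a log2 fold change of -1.39 (SE 0.26, edgeR adjusted p = 0.000860), from a mean of 189 ± 67.1 CPM (SD, n = 11) to 72.2 ± 7.02 CPM (SD, n = 5). Among the 10 members, Mdm2 and Mcl1 had normalised counts that did not overlap between the classes, and 5.72% of all genes tested did not overlap with the intra-CNS tumors below. On the TPM scale Mdm2 overlapped and Mcl1 did not.

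Of the survival genes, Mcl1, a short-lived protein that restrains Bak1, had the smallest adjusted p of the 10 genes. The 5 intra-CNS tumors held 112, 126, 136, 139 and 152 CPM. The intracranial extra-CNS tumors ran from 306 CPM (R26P115) to 552 CPM with a median of 436 CPM, and the extracranial tumors measured 231 (43990A), 488, 554, 636 and 672 CPM. The lowest extra-CNS value was above every intra-CNS value, on the CPM scale and on the TPM scale. This gave a log2 fold change of -1.82 (SE 0.25, edgeR adjusted p = 7.98e-05), between means of 133 ± 14.9 CPM (SD, n = 5) and 469 ± 146 CPM (SD, n = 11).

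Bcl2, the founding member of the family, was lower as well. It measured 24.8, 25.2, 30.9, 31.7 and 36.6 CPM in intra-CNS tumors. Intracranial extra-CNS tumors spanned 63.2 to 164 CPM with a median of 87.7 CPM, and extracranial tumors gave 15.3 (43990A), 51.3, 57.9, 80.8 and 88.6 CPM. Apart from 43990A, which had the lowest Bcl2 of the series, each extra-CNS tumor was above every intra-CNS tumor. Bcl2 fell by 1.46 on the log2 scale (SE 0.37, edgeR adjusted p = 0.00705). Bcl2l1, which encodes Bcl-xL, was not called. Its values were 46.2, 52.1, 58.5, 71.5 and 90.5 CPM in intra-CNS tumors and 33.5 to 180 CPM in extra-CNS tumors (median 103 CPM). The extra-CNS range held the whole intra-CNS range, and the log2 fold change was -0.66 (SE 0.34, 95% interval -1.37 to 0.06, edgeR adjusted p = 0.141).

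Both effector genes were lower in intra-CNS tumors. Bax measured 34.8, 42.5, 45.3, 45.4 and 55.8 CPM there. It reached 42.5 (R26P115) to 169.9 CPM, median 107 CPM, in intracranial extra-CNS tumors and 53.5 (43990A), 80.1, 95.6, 99.4 and 111 CPM in extracranial tumors. R26P115 and 43990A were the extra-CNS tumors that fell within the intra-CNS range, and the log2 fold change was -1.14 (SE 0.27, edgeR adjusted p = 0.00398). Bak1 measured 22.4, 28.4, 31.9, 51.2 and 51.3 CPM in intra-CNS tumors. It lay between 33.8 (R26P115) and 128 CPM, median 69.0 CPM, in intracranial extra-CNS tumors and at 55.8, 60.7, 66.6, 86.5 and 94.2 CPM in extracranial tumors. R26P115 was the one extra-CNS tumor within the intra-CNS range. The log2 fold change of Bak1 was -0.97 (SE 0.28, edgeR adjusted p = 0.0134).

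Among the BH3-only genes, Bcl2l11 (Bim), which binds every survival protein of the family, had the largest log2 fold change of the 10 genes. Intra-CNS tumors held 14.9, 15.0, 16.0, 23.2 and 27.2 CPM, intracranial extra-CNS tumors 22.1 (R26P115) to 172 CPM with a median of 90.0 CPM, and extracranial tumors 43.0, 46.3, 51.6, 75.6 and 97.5 CPM. R26P115 alone overlapped the intra-CNS tumors. Bcl2l11 had a log2 fold change of -2.07 (SE 0.47, edgeR adjusted p = 0.00302).

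Bbc3 (Puma) was not called with all tumors. It measured 8.60 (29048), 14.9, 15.3, 18.9 and 19.1 CPM in intra-CNS tumors. The intracranial extra-CNS tumors spread from 5.93 (R26P115) to 119 CPM (R26P170), with a median of 30.5 CPM, and the extracranial tumors gave 13.9, 19.0, 26.9, 28.2 and 42.4 CPM. The widest spread of any member was that of Bbc3 in the extra-CNS tumors, 20.1-fold between the highest and the lowest. Its log2 fold change was -1.24 (SE 0.52, edgeR adjusted p = 0.0784), and without R26P115 -1.35 (SE 0.45, edgeR adjusted p = 0.0265). With 29048 also left out it was -1.20 (edgeR adjusted p = 0.0674).

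Pmaip1 (Noxa), which binds Mcl1, was not called. It measured 5.66, 9.67, 15.1, 24.2 and 47.7 (29048) CPM in intra-CNS tumors, 6.65 (R26P115) to 37.1 CPM, median 27.5 CPM, in intracranial extra-CNS tumors, and 5.0, 7.55, 9.55, 16.9 and 22.5 CPM in extracranial tumors. The groups overlapped throughout, and the tumor with the highest value was 29048. The log2 fold change was 0.05 (SE 0.53, 95% interval -1.06 to 1.17, edgeR adjusted p = 0.948), an interval that includes a change of more than 1 in either direction. Without 29048 it was -0.53, and without both tumors -0.62 (edgeR adjusted p = 0.356).

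**Figure D2:**
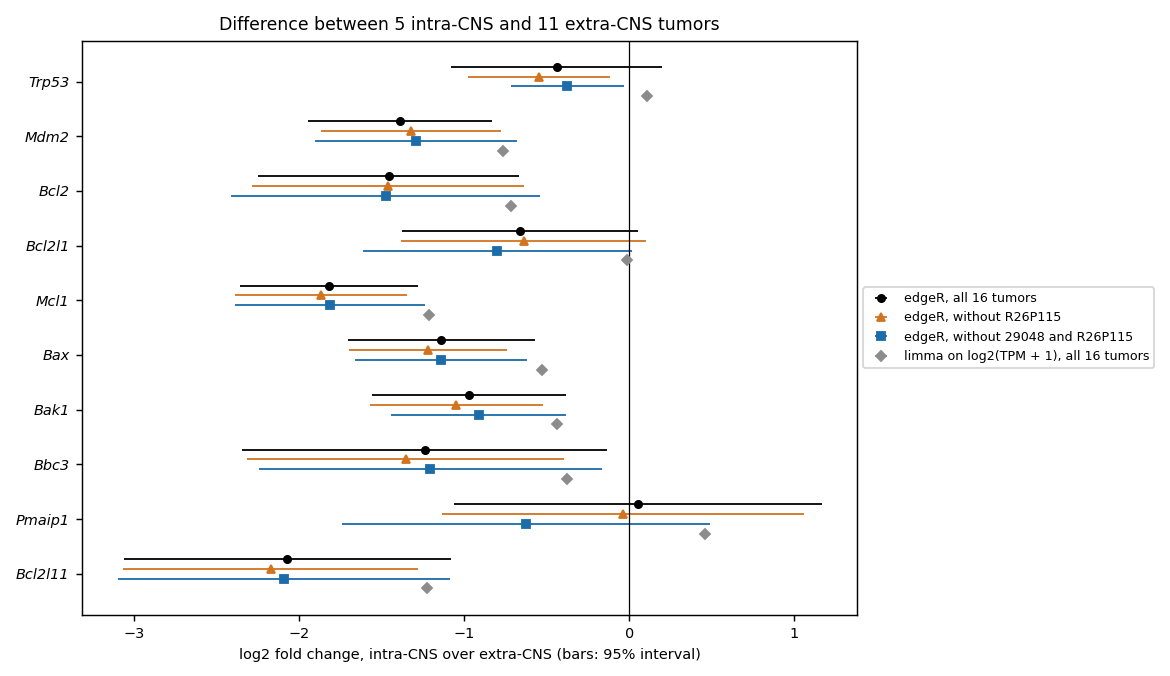
Log2 fold change of intra-CNS over extra-CNS tumors for the 10 genes, with 95% intervals, from edgeR with all 16 tumors, without R26P115 and without both R26P115 and 29048, and from limma on log2(TPM + 1), drawn without intervals. Points left of 0 are lower in intra-CNS tumors. The TPM values sit to the right of the edgeR values for each gene, with Trp53 at 0.11 in place of -0.44.

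How many members were called depended on the scale. The 100 most abundant genes held 18.9 ± 2.75% of TPM in intra-CNS tumors (SD, n = 5) and 28.9 ± 4.20% in extra-CNS tumors (SD, n = 11). On plain log2(TPM + 1) the median difference of all genes was 0.20 and 32.3% of genes were called higher and 7.79% lower by limma, against 16.1% and 17.0% on the normalised counts. There, 3 members were called lower by limma, Mdm2 (adjusted p = 0.0167), Mcl1 (adjusted p = 0.000657) and Bcl2l11 (adjusted p = 0.0304). On that scale 8 of the 10 members had a difference below 0, with a median of -0.48 beside the 0.20 of all genes. In the 7 tumors induced at embryonic day 6 (5 against 2), 5 members were called lower by edgeR, where 11.3% of all genes were. Bak1 (edgeR adjusted p = 0.0681) and Bcl2l11 (edgeR adjusted p = 0.0633) were lost and Bbc3 (edgeR adjusted p = 0.0228) was gained. Of the 2 extra-CNS tumors in that fit, R26P170 held the highest Bbc3 of the series (119 CPM) and 43825B held 28.2 CPM. Macrophage markers moved with the classes, all 8 being called lower in intra-CNS tumors, with a summed level of 615 to 1001 TPM there and 764 (R26P115) to 7671 TPM in extra-CNS tumors. Of the other marker lists, 6 of 7 T and NK cell, 5 of 5 neutrophil, 4 of 5 skeletal muscle, 1 of 4 B cell and 1 of 4 endothelial markers were lower in intra-CNS tumors, and 5 of 6 oligodendrocyte and 3 of 6 neuron markers were higher. The oligodendrocyte sum was 6295 TPM in 29048, 47.4 to 154 TPM in the other intra-CNS tumors and 42.2 to 136 TPM in extra-CNS tumors. The neuron sums overlapped, at 83.8 to 3210 TPM in intra-CNS and 9.29 to 310 TPM in extra-CNS tumors. The part of these cells in the members' values was not tested. In bulk tumors fewer cells of a type and less RNA per cell cannot be told apart.

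No difference between the 2 Myc-class locations was detectable in these genes. Between 6 intracranial extra-CNS and 5 extracranial tumors, 0 of the 10 members were called by edgeR, where 1 of 21261 genes was called (0.0047%) and 2606 genes had an unadjusted p under 0.05. DESeq2 called 505 genes and 0 members. The largest log2 fold changes of intracranial extra-CNS over extracranial tumors were 1.07 for Pmaip1 (95% interval -0.01 to 2.14, edgeR adjusted p = 0.409), 0.77 for Bcl2 (-0.11 to 1.65, edgeR adjusted p = 0.457) and 0.76 for Bbc3 (-0.56 to 2.08, edgeR adjusted p = 0.620). Those of Trp53, Mcl1 and Bak1 were -0.27 (-1.01 to 0.48), -0.27 (-0.94 to 0.40) and -0.02 (-0.67 to 0.63). Mdm2 at 0.39 (-0.29 to 1.07), Bcl2l1 at 0.33 (-0.56 to 1.22), Bax at 0.28 (-0.43 to 0.99) and Bcl2l11 at 0.61 (-0.52 to 1.74) lay between. Each interval includes 0. In counts simulated for this comparison, 26% of 200 genes with a 4-fold difference and 0% of 200 with a 2-fold difference were called, so differences of that size could have been missed.

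Against each location on its own, in a fit of 3 groups that shares the 5 intra-CNS tumors between both comparisons, the calls were as follows. Against the 6 intracranial extra-CNS tumors 7 members were lower by edgeR, where 15.0% of all genes were: Bcl2l11 at a log2 fold change of -2.32, Bcl2 at -1.76, Mcl1 at -1.69, Mdm2 at -1.55, Bbc3 at -1.54, Bax at -1.26 and Bak1 at -0.97. Bbc3 passed narrowly (edgeR adjusted p = 0.0477) and was called in 4 of 16 fits that left out 1 tumor (edgeR adjusted p of 0.00737 to 0.144). Bak1 (edgeR adjusted p = 0.0304) was called in 11 of those 16 and lost without 29048, 38594A, 29050A, 43992A or 29225D. Against the 5 extracranial tumors 5 members were lower by edgeR, where 15.3% of all genes were: Mcl1 at -1.96, Bcl2l11 at -1.70, Mdm2 at -1.16, and Bax and Bak1 each at -0.97. Leaving out 29048 or R26P123 ended the calls of Bax (edgeR adjusted p = 0.0544 and 0.0562) and Bak1 (edgeR adjusted p = 0.0760 and 0.0699), and that of Bak1 was also lost without 38594A, 29050A or 43825B. Bcl2 missed the threshold there at -0.98 (edgeR adjusted p = 0.0577), and passed it without the low value of 43990A at -1.22 (edgeR adjusted p = 0.00439). Without 29048 and R26P115, 7 members were lower against intracranial extra-CNS tumors, where 3348 of 21700 genes were. Against extracranial tumors 5 members were lower in that setting, where 3470 of 21700 genes were.

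Levels were compared between genes per transcript length, as TPM. In the intra-CNS tumors the order of the medians was Trp53 (213 TPM), Bax (166 TPM), Mcl1 (124 TPM), Mdm2 (76.5 TPM), Bcl2l1 (55.3 TPM), Bak1 (48.6 TPM), Bbc3 (24.5 TPM), Pmaip1 (18.1 TPM), Bcl2 (13.2 TPM) and Bcl2l11 (6.94 TPM). Of the 9 neighbouring pairs in this order, 7 overlapped between tumors, and the ranges parted between Mcl1 and Mdm2 and between Bak1 and Bbc3. In the extra-CNS tumors Mcl1 came first (median 336 TPM), followed by Bax (245 TPM), Trp53 (179.7 TPM) and Mdm2 (132 TPM). Next came Bak1 (71.5 TPM), Bcl2l1 (66.7 TPM), Bbc3 (31.2 TPM), Bcl2 (24.1 TPM), Bcl2l11 (18.0 TPM) and Pmaip1 (16.7 TPM), and all 9 neighbouring pairs overlapped.

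Mcl1 was the most abundant survival transcript in each tumor. It made up 61.9 ± 6.98% of the summed TPM of Bcl2, Bcl2l1 and Mcl1 in intra-CNS tumors (SD, n = 5), 71.1 ± 9.08% in intracranial extra-CNS tumors (SD, n = 6) and 80.8 ± 6.56% in extracranial tumors (SD, n = 5). The share ran from 50.2% (29048) to 67.3% in intra-CNS tumors, 55.8% to 79.98% in intracranial extra-CNS tumors and 71.4% to 89.6% in extracranial tumors. The intracranial extra-CNS range overlapped both others, and the intra-CNS and extracranial ranges did not overlap. Bcl2l1 held 31.5 ± 7.25%, 20.4 ± 8.14% and 15.1 ± 6.94% in the same order of groups. Bcl2 held 6.63 ± 1.41%, 8.52 ± 4.36% and 4.16 ± 1.29%, with the highest share in 29225D (16.3%) and the lowest in 43990A (2.49%).

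**Figure D3:**
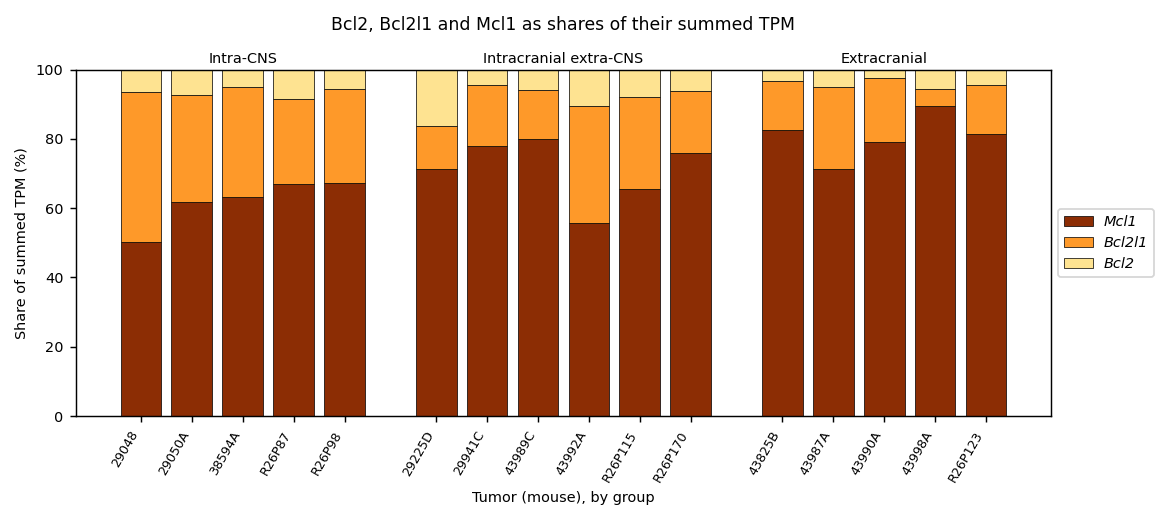
Mcl1, Bcl2l1 and Bcl2 as percentages of their summed TPM in each tumor (1 bar a tumor, named by mouse, grouped by location). Mcl1 holds between 50.2% and 89.6% of the sum, and its share is lowest in 29048 and highest in 43998A.

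Ratios within a tumor do not depend on its scaling. The log2 ratio of Bcl2 to Bax TPM was -3.65 ± 0.41 in intra-CNS tumors (SD, n = 5) and -3.44 ± 0.88 in extra-CNS tumors (SD, n = 11), a difference smaller than the spread. That of Bcl2l1 to Bax was -1.42 ± 0.59 and -1.94 ± 0.77, again a difference within the spread. That of Mcl1 to Bcl2 was 3.23 ± 0.35 in intra-CNS, 3.18 ± 0.80 in intracranial extra-CNS and 4.33 ± 0.48 in extracranial tumors. Its linear ratio ran from 7.62 to 12.6, from 4.36 to 17.6 and from 14.4 to 31.1 in the same order, so intra-CNS and extracranial tumors did not overlap. The log2 ratio of Mcl1 to its partner Pmaip1 was 2.67 ± 1.23 in intra-CNS tumors, 3.79 ± 0.78 in intracranial extra-CNS tumors (SD, n = 6) and 5.09 ± 0.80 in extracranial tumors (SD, n = 5). The linear ratio ran from 1.79 to 16.7 in intra-CNS, 7.90 to 34.3 in intracranial extra-CNS and 21.4 to 72.6 in extracranial tumors, and here too intra-CNS and extracranial tumors did not overlap. These ratios are descriptions and were not tested.

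Across the 11 extra-CNS tumors the level of Trp53 was not shown to follow that of any other member. Over the 9 relations, Pearson's r of log2(TPM + 1) reached 0.68 with Bak1 (permutation p = 0.0714, adjusted p = 0.223), 0.61 with Bax (permutation p = 0.0863, adjusted p = 0.223) and 0.60 with Bbc3 (permutation p = 0.0992, adjusted p = 0.223). Spearman's rho for these was 0.16, 0.25 and 0.06, with permutation p of 0.635, 0.448 and 0.859 and adjusted p of 0.816, 0.816 and 0.861. Without the 2 tumors farthest from the Trp53 median, R26P115 and 43990A, r was -0.13, 0.46 and 0.08, so the relations with Bak1 and Bbc3 rest on those tumors. With Mdm2, r was -0.34 (permutation p = 0.291, adjusted p = 0.436), rho -0.06 (permutation p = 0.861) and r without those tumors 0.40. The other 5 relations had r between -0.17 and 0.54 and permutation adjusted p of 0.223 to 0.570. On log2(CPM + 1), leaving out R26P115 alone turned r with Bax from 0.51 to -0.52. It turned r with Bak1 from 0.59 to -0.33 and with Bbc3 from 0.57 to -0.23. On that scale the relation with Bax therefore also depended on R26P115.

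The part of R26P115 and 43990A in the r values that follow was not tested. The genes whose log2(TPM + 1) followed each member most closely over the same 11 tumors, among 15023 genes, were named as a description. They were Arsk (r = 0.99) and Cenpt (0.98) for Trp53, Galk2 (0.90) and Manea (0.86) for Mdm2, Maea (0.94) and Mfge8 (0.90) for Bcl2, Gemin7 (0.87) and Jmjd1c (0.85) for Bcl2l1, and F2r (0.94) and March11 (0.91) for Mcl1. Those of Bax were Cdkn2a (0.95) and Itprip (0.94), and those of Bak1 Rbm42 (0.97) and Asl (0.95). The BH3-only genes had Triobp (0.94) and Ube2d1 (0.93) for Bbc3, Ydjc (0.89) and Rnf125 (0.89) for Pmaip1, and Golt1b (0.97) and Sec13 (0.95) for Bcl2l11.

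The wider pathway was taken from 4 lists. Of 30 listed p53 targets, 16 were lower and 2 higher in intra-CNS than in extra-CNS tumors by edgeR. Of all genes tested, 17.0% were lower (22.4% after the filter on low counts) and 16.1% higher. The median log2 fold change of the list was -1.04 beside -0.15 for all genes. The largest falls were those of the cell-cycle inhibitor Cdkn1a (-3.75, SE 0.53, edgeR adjusted p = 9.30e-05), from 299.6 ± 143 CPM (SD, n = 11) to 22.2 ± 11.6 CPM (SD, n = 5), of the phosphatase Ptpn14 (-3.29, SE 0.26) and of the stress cytokine Gdf15 (-3.14, SE 1.01), which was scarce at 1.09 CPM or less in both group means. Aen, a nuclease, fell by 0.97 on the log2 scale. Sesn1, a sestrin induced by stress (1.16, SE 0.26), and Ei24 (0.82, SE 0.19) rose. Without 29048 and R26P115, 15 were lower and 2 higher. In that fit 3708 of 21700 genes were lower and 3883 higher, the background also for the lists below.

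Of 22 listed p53 regulators and relatives, 3 were lower and 2 higher, with a median of 0.02, where 17.0% of all genes were lower and 16.1% higher. The list therefore held no larger share of called genes than the whole table did. Cdkn2a, whose Arf product blocks Mdm2, was lower (-3.23, SE 0.61, edgeR adjusted p = 0.000780), at 4.37 ± 3.38 CPM (SD, n = 5) against 41.1 ± 28.6 CPM (SD, n = 11). Its reads were counted over the whole gene, so the Arf transcript cannot be told apart. Also lower were Ppp1r13l, encoding the p53 inhibitor iASPP (-2.74, SE 0.53), and the ubiquitin ligase Rchy1 (-0.47, SE 0.16). Trp53bp1, a DNA break repair factor (1.51, SE 0.22), and the acetyltransferase Kat5 (0.41, SE 0.12) were higher. Without 29048 and R26P115, 3 were lower and 3 higher.

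Of 16 other Bcl2 family genes, 5 were lower and 2 higher, beside the same 17.0% and 16.1% of all genes, with a median of -0.87, and without the same tumors 7 were lower and 2 higher. The survival genes Bcl2a1a (-3.81), Bcl2a1b (-3.72) and Bcl2a1d (-3.61) were lower. They are near-identical copies expressed in myeloid cells, and their separate counts are uncertain. All 8 macrophage markers were also lower, and the part of macrophages in the values of these copies was not tested. The BH3-only gene Bik (-2.72) and Bcl2l14 (-3.11) were lower at means of at most 0.80 CPM. Hrk, a BH3-only gene of neurons, was higher (4.58, SE 0.90, edgeR adjusted p = 0.00111), at 12.4 ± 8.99 CPM (SD, n = 5) against 0.52 ± 0.62 CPM (SD, n = 11), as was the effector-like Bok (2.03, SE 0.62, edgeR adjusted p = 0.0198).

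Downstream, of 21 genes of the apoptosome, caspases and inhibitors, 5 were lower and 3 higher, with a median of -0.37, and the counts were 5 and 3 without those tumors. These counts lie near the shares of all genes, which were 17.0% lower (22.4% after the filter on low counts) and 16.1% higher, and the genes that follow are named as single values. The inhibitor Birc3 (-3.59, SE 0.39), the death-receptor caspase Casp8 (-3.29, SE 0.32) and the apoptosome scaffold Apaf1 (-1.42, SE 0.44) were lower. Casp2 (0.70, SE 0.24) and Diablo (0.38, SE 0.14), which relieves caspase inhibition, were among the higher genes. On the TPM scale the medians were -0.39 for the p53 targets, 0.40 for the regulators, -0.11 for the other Bcl2 family and 0.27 for the caspase list, beside 0.20 for all genes, so the sign of the last list turned with the scale. Between the Myc-class locations 0 genes of the 4 lists were called by edgeR. Against intracranial extra-CNS tumors, 16 p53 targets, 4 regulators, 6 other Bcl2 family genes and 4 of the caspase list were lower and 2, 3, 2 and 3 higher by edgeR, where 15.0% of all genes were lower and 13.1% higher. Against extracranial tumors 10, 2, 5 and 4 were lower and 2, 2, 1 and 1 higher, where 15.3% and 13.8% of all genes were.

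**Figure D4:**
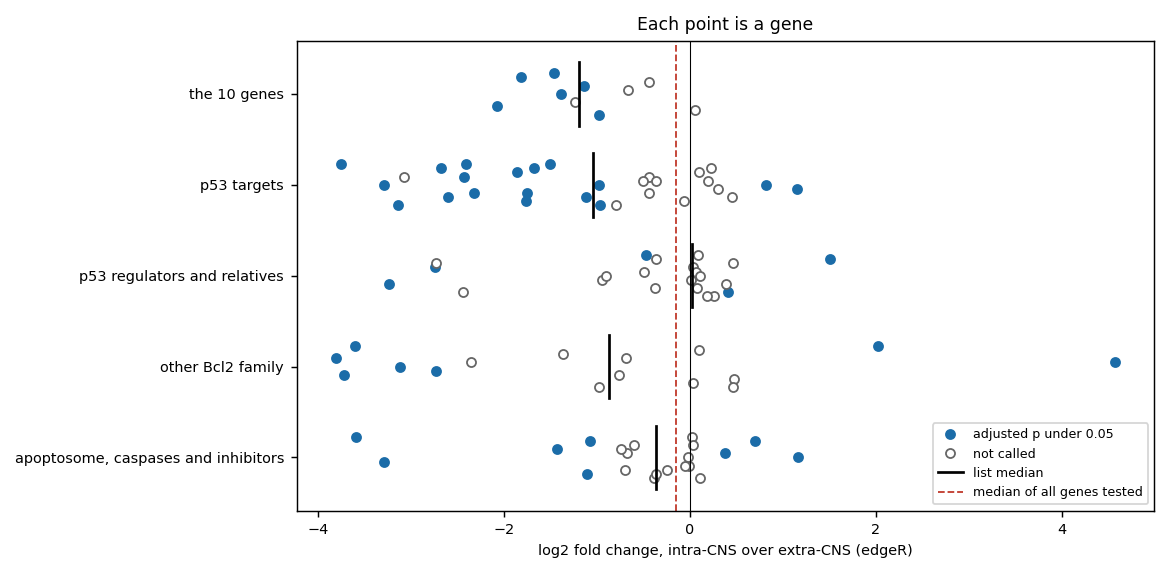
Log2 fold change of intra-CNS over extra-CNS tumors (edgeR) for the 10 genes and 4 lists of related genes. Filled points have an adjusted p under 0.05, short black lines are list medians and the dashed line is the median of all genes tested (-0.15). The p53 targets lie mostly to the left, with a median of -1.04, while the regulators centre at 0.02.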

How the data were processed

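The authors trimmed reads with Trim Galore, checked them with FastQC and Picard and aligned them with STAR 2.5.3a to mm10, per the submitters' processing notes. They deposited raw counts per gene (24982 genes, unnormalised) and TPM (24951 genes, scaled by the authors for length and to a fixed sum per tumor). The annotation and the strand setting of the counting are not given in the sources used here. Counts were tested with edgeR 4.0.16 (TMM normalisation, glmQLFit and glmQLFTest, R 4.3.3) on genes with a count in any tumor compared, with Benjamini-Hochberg adjustment over all of them and calls at adjusted p under 0.05. SEs are the log2 fold change over the square root of F. DESeq2 1.42.0 and limma 3.58.1 on log2(TPM + 1) served as alternatives, with a pseudocount of 0.1 in place of 1, another size factor, filterByExpr, a fold threshold, tumors left out, the day of induction and the name scheme. CPM shown for tumors are TMM-normalised over all 16. Deposited counts of 17889968 to 110177889 per tumor put the limit of a count of 0 (3 counts) at 0.0272 to 0.168 CPM, counting error only. Permutation tests were two-sided with 100000 resamples, and ratios used a TPM pseudocount of 0.1.

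Named genes are the 10 members, Smarcb1, genes sharing exons with a member and Wrap53, in each list the called genes with the 3 highest and 3 lowest fold changes between intra-CNS and extra-CNS tumors, and the 2 genes nearest to each member. Ttr, Myc and Bcl2l14 were named after their values were seen. The lists were p53 targets, p53 regulators and relatives, other Bcl2 family, the apoptosome with caspases and inhibitors, and markers of 8 cell types. The members and lists were chosen with earlier results of these data known. Groups come from the labelled location, and replicates are tumors of separate mice. The edgeR script was tested on simulated data: for intra-CNS against extra-CNS tumors, 59% of 200 genes given a 4-fold difference were called beside 10 unchanged genes, and 0.5% of 200 given a 2-fold difference. Each simulation changed only 200 genes, whereas 33.1% of all genes were called in the tumors. These rates therefore do not describe how often such differences would be called in the real comparison.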

Additional observations from a re-analysis of the deposited data

Results flagged for a closer look

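Of 30 groups of 5 or 6 tumors, 1 for each member and location, 3 held a tumor whose distance from its nearest neighbour was above Dixon's 95% critical value on log2(CPM + 1). Chance gives about 1 in 20 groups. The 30 groups are 10 genes in the same 16 tumors and are not independent, so the count cannot be tested against that rate. Trp53 in the intracranial extra-CNS tumor R26P115 stood at 36.7 CPM, below 143 to 175 CPM in the other 5. Trp53 in the extracranial tumor 43990A stood at 235 CPM, above 143 to 158 CPM in the other 4. Pmaip1 in R26P115 stood at 6.65 CPM, below 20.5 to 37.1 CPM in the other 5. R26P115 is also the tumor with the highest Ttr and Smarcb1 and the lowest Myc of the extra-CNS tumors, and the part of these in its values was not tested.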

How the results depend on the processing

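Between intra-CNS and extra-CNS tumors the 6 calls among members held in each of 16 fits that left out 1 tumor (6 to 8 members called, 5827 to 8642 genes), with DESeq2 (7 members), with DESeq2 size factors, after filterByExpr, with name scheme as a covariate and on TPM rescaled by median ratios, the last chosen after seeing the data. Over these fits the genes called lower ranged from 2731 of 21841 (rescaled TPM) to 4459 of 21854 (DESeq2). On plain log2(TPM + 1) or log2(TPM + 0.1) 3 members were called lower by limma, where 1701 and 1872 of 21841 genes were. Among tumors induced at embryonic day 6 edgeR called 3742 genes. Against intracranial extra-CNS tumors 4 members were called lower on both plain TPM scales, where 1453 and 1597 of 21841 genes were. On rescaled TPM 6 members and 2344 of 21841 genes were lower. With 1 tumor left out 5 to 7 members were called, beside 4722 to 7414 genes in either direction. Against extracranial tumors 1 member was called lower on both plain TPM scales, where 1597 and 1745 of 21841 genes were. That member count lies near the share of all genes. On rescaled TPM 4 members and 2332 of 21841 genes were lower. With an absolute log2 fold change above 1 these were 3 members and 2826 of 21854 genes. With 1 tumor left out 3 to 6 members were called (3 without 29048 or without R26P123), beside 5064 to 7334 genes in either direction. Between the Myc-class locations the count of genes was 505 with DESeq2, 2 on log2(TPM + 0.1) and on rescaled TPM, and 0 to 3 with 1 tumor left out, with 0 members called in each.

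Signs turned for uncalled values. On log2(TPM + 1) and log2(TPM + 0.1) these were Trp53 against extra-CNS (0.11 and 0.11) and intracranial extra-CNS tumors (0.30 and 0.31), Pmaip1 against intracranial extra-CNS tumors (0.0150 and 0.0154) and Bcl2l1 against extracranial tumors (0.23 and 0.24). Pmaip1 against extra-CNS tumors was -0.53 to 0.29 with 1 tumor left out, -0.61 at day 6 and -0.62 without 29048 and R26P115. Between the Myc-class locations Bak1 was 0.00299 with DESeq2, 0.00302 with its size factors and -0.24 to 0.14 with 1 tumor left out, and Trp53 was 0.0142 with 43990A counted as intracranial. The correlation of Trp53 without its 2 farthest tumors was 0.40 with Mdm2, 0.19 with Bcl2 and -0.13 with Bak1. The 4 ratios kept their sign with pseudocounts of 0.01 and 1. The causes of these changes were not tested. No paired analysis was possible because the tumors come from separate mice and the replicate numbers are only names. Fits on day 6 alone were not run for the other comparisons, which leave 1 tumor in a group.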

Other observations

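The extra-CNS tumors with the highest and the lowest Trp53 were also at the ends of other members. This pattern was read from the values after they were seen and was not tested. For how many of all genes these tumors were at an end is not given here. In 43990A, with Trp53 at 235 CPM, Mdm2 (84.0 CPM), Bcl2 (15.3 CPM) and Mcl1 (231 CPM) were the lowest of the 11 extra-CNS tumors. In R26P115, with Trp53 at 36.7 CPM, Bax (42.5 CPM), Bak1 (33.8 CPM), Bbc3 (5.93 CPM) and Bcl2l11 (22.1 CPM) were the lowest of the 11, while Mdm2 stood at 272 CPM, below 29941C (319 CPM) and above the other 9.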
